A study of Mus musculus with 4 samples.

Results

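The acid-base genes of the renal intercalated cell were examined as a set of 10 genes among the 55401 genes of the count files. They were chosen by symbol and comprised 5 genes for kidney forms of proton pump subunits (Atp6v1b1, Atp6v1c2, Atp6v1g3, Atp6v0d2 and Atp6v0a4), 3 anion exchanger genes (Slc4a1, Slc4a9 and Slc26a4), the ammonia channel gene Rhcg and the transcription factor gene Foxi1. All 10 were found in the files by identifier. The series holds 4 RNA-seq libraries of C57BL/6 mice, 1 each from the kidney and the heart of mice with cecal ligation puncture (CLP), a model of sepsis in which gut bacteria leak into the abdomen, and 1 each from the kidney and the heart of mice with CLP that received melatonin (CLP + MLT). Per the study's methods for the kidneys, male mice aged 8 weeks drank melatonin at 25 μg/ml for 14 days before the operation on day 15, with collection of the kidneys 24 h later. The ethanol in which melatonin was dissolved (0.1%) is stated for the sham group, and what the CLP group drank is not stated in the sources used here. All 4 libraries came from mice with CLP, so none of the comparisons below is with a healthy mouse. The labels write the treated group as MLT4 in places, and the number is not explained. Whether mice were pooled for a library is not stated, nor are a dose and a time for the hearts.

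Intercalated cells are scattered among the principal cells of the connecting tubule and collecting duct and set the final acid content of urine. Type A cells pump protons into the tubule with a vacuolar H+-ATPase (V-ATPase) in the apical membrane and return bicarbonate to the blood through the exchanger AE1. Type B cells work the other way round and secrete bicarbonate in exchange for chloride through pendrin. The V-ATPase is a rotary pump with a cytosolic part called V1, which splits ATP, and a membrane part called V0, which carries the protons. Most cells use it to acidify lysosomes and other compartments, and several of its subunits have a second gene that is used mainly in intercalated cells and a few other epithelia.

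Each group had 1 library, so no difference between libraries could be set against the spread between mice, and no p-value is given. Reads counted on genes numbered 15883057 to 22927905 per library, and mitochondrial genes took 14.8% of them in the CLP kidney library and 24.2% in the CLP + MLT kidney library. Levels are given as counts, as counts per 1000000 counts of the library after TMM scaling (normalised CPM) or, between genes, as normalised CPM per kilobase of exon. The log2 ratio is that of CLP + MLT over CLP after TMM scaling, followed in brackets by its 95% exact (Clopper-Pearson) interval, which covers counting error only. The labelled tissues carried their defining genes. Umod of the thick ascending limb had 94985 and 50359 counts in the CLP and CLP + MLT kidney libraries, and Myh6, a myosin of heart muscle, had 208975 and 158174 in the heart libraries against 69 and 61 in kidney. The injury gene Havcr1 went from 1517 to 43 counts between the kidney libraries, so the libraries differed in more than the genes described here.

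In kidney, the level of 9 of the 10 genes was higher after melatonin (CLP + MLT) than without it, and that of Atp6v0a4 was lower. The median log2 ratio of the 10 genes was 0.50, against 0.0029 for the 16932 genes that averaged 10 or more counts in the kidney libraries, of which 50.3% were higher and 49.7% lower. The 9 higher genes spanned log2 ratios of 0.31 (Atp6v0d2) to 0.77 (Atp6v1c2), a narrow range of moderate differences. The intervals of all 9 lay wholly above 0, as did those of 26.2% of all genes, and the interval of Atp6v0a4 lay wholly below 0, as did those of 25.6%. All 10 passed the filter of 10 counts, with means of at least 685.5 counts. A fold difference of at least 1.5 was reached by 3 of them, Atp6v1c2, Slc4a1 and Atp6v1b1, all higher, while 11.0% of all genes were higher by that much. Among the 6433 genes averaging 500 or more counts, which are nearer to these genes in depth, the share was 5.1%. Of those 6433 genes, 34.1% had an interval wholly above 0 and 35.4% wholly below 0. At 2-fold, 1.29% of them were higher and 1.34% lower. None of the 10 acid-base genes reached 2-fold either way, while 4.13% of all genes were 2-fold higher and 4.9% were 2-fold lower. With edgeR's exact test at an assumed coefficient of variation between mice of 0.2 or of 0.4 (unadjusted p of at most 0.01), none was called either, where 1.71% and 0.136% of all genes were called higher. The threshold cut through the set: Atp6v1b1 lay just above it at 1.52-fold and Slc4a9 just below at 1.48-fold. Scaled by library size only, none of the 10 reached 1.5-fold, because that scaling lowered the median log2 ratio of all genes by 0.19. The 9 genes stayed above 0 under it, from 0.12 for Atp6v0d2 to 0.58 for Atp6v1c2, and Atp6v0a4 stood at −0.54. In whole tissue, fewer cells of a type and less RNA per cell cannot be told apart.

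**Figure D1:**
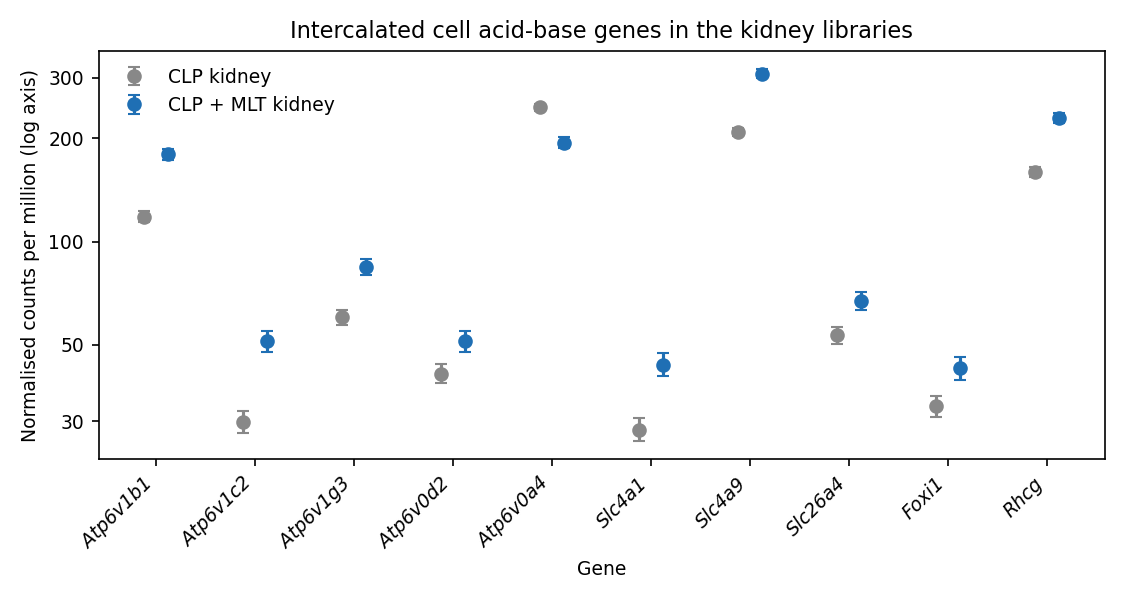
Normalised CPM (log axis) of the 10 genes in the CLP kidney library (grey) and the CLP + MLT kidney library (blue), with 95% exact Poisson intervals of the counts. The blue point lies above the grey one for every gene but Atp6v0a4, which went from 246 to 194 normalised CPM.

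Per kilobase of exon, Rhcg had the highest level of the set in both kidney libraries, at 71.4 (CLP) and 102.5 (CLP + MLT) normalised CPM per kilobase. In the CLP library it was followed by Atp6v0a4 (49.4), Slc4a9 (32.5), Atp6v1g3 (31.9), Atp6v1b1 (26.9), Slc26a4 (17.1), Atp6v0d2 (15.2), Foxi1 (14.1), Atp6v1c2 (13.8) and Slc4a1 (5.80), all in the same unit. Counting intervals overlapped between the neighbours Slc4a9 and Atp6v1g3, Atp6v0d2 and Foxi1, and Foxi1 and Atp6v1c2, so their order is not fixed. In the CLP + MLT library Atp6v0a4 stood at 39.0, behind Rhcg, Slc4a9 (48.1), Atp6v1g3 (44.7) and Atp6v1b1 (41.0), and its interval overlapped that of Atp6v1b1. Atp6v1c2 (23.5) had moved above Slc26a4 (21.6), Atp6v0d2 (18.9) and Foxi1 (18.2), with an interval that overlapped that of Slc26a4, and Slc4a1 was again the lowest at 8.96.

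Foxi1 (ENSMUSG00000047861.2, GRCm38 chromosome 11 from 34204338 to 34208089, minus strand) encodes the forkhead transcription factor that intercalated cells need to form and that activates genes of the pump and of the anion exchangers. It had 813 counts (CLP kidney) and 659 counts (CLP + MLT kidney), which are 33.1 and 42.8 normalised CPM. The log2 ratio was 0.37 (0.22 to 0.52), a difference that did not reach 1.5-fold.

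The 250 bases before the RefSeq start of each gene (GRCm38.p6, the build behind mm10) were searched for the core word of forkhead factors, the family of Foxi1. The reference table matched 7 of the 10 genes; Atp6v0d2, Slc4a1 and Slc4a9 had no entry. Searched on both strands were the 8 words TGTTTAC or TGTTTAT or TGTTTGC or TGTTTGT or TATTTAC or TATTTAT or TATTTGC or TATTTGT. Any of them was present in the windows of 4 of the 7 genes, and in 24.9% of all 32851 windows of this length. The single word TGTTTAC was in 1 of the 7, that of Atp6v1b1, and in 3.17% of all windows. The 4 windows with a word are shown with that of Atp6v0a4, the gene that was lower, which held none; Foxi1 and Rhcg held none either. Each is written 5′ to 3′ on the strand of its gene, and capitals mark the word, which appears as its reverse complement where it lies on the other strand.
Atp6v1b1, chr6:83742767-83743016, plus strand, word 98 to 92 bases before the start: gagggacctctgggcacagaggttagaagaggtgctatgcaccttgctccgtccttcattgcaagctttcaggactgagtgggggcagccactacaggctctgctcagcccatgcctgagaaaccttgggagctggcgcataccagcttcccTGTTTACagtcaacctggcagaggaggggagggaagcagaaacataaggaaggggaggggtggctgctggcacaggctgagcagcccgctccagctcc
Atp6v1c2, chr12:17324731-17324980, minus strand, word 71 to 65 bases before the start: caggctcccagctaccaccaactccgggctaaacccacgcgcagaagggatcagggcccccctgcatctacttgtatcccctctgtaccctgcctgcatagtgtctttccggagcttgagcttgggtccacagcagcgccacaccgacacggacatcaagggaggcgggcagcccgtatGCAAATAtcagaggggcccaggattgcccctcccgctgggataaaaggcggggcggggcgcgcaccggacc
Atp6v1g3, chr1:138273488-138273737, plus strand, word 67 to 61 bases before the start: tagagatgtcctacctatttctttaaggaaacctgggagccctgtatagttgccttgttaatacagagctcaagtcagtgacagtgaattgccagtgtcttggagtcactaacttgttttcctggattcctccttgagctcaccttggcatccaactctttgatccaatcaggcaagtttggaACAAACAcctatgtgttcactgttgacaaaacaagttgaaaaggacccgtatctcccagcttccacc
Slc26a4, chr12:31559985-31560234, minus strand, word 65 to 59 bases before the start: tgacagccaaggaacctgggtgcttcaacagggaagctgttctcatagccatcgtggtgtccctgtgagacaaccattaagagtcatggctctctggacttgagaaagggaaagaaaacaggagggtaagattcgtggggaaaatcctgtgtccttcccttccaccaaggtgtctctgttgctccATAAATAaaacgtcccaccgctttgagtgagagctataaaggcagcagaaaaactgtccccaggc
Atp6v0a4, chr6:38124587-38124836, minus strand, no word: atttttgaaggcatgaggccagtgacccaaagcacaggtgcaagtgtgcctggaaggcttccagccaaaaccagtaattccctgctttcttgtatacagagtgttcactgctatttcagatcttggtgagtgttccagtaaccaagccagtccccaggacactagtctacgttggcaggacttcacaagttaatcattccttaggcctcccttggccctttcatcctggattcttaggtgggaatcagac
A match is a description of the letters only, binding was not measured, and a link between the words and the log2 ratios was not tested. The window of Atp6v1c2 lies inside the longer gene of the GENCODE annotation and outside its exons, and 27 bases of the Atp6v1b1 window lie in a GENCODE exon.

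Among the pump genes, the kidney forms of V1 subunits were all higher in the CLP + MLT kidney library. Atp6v1b1 (ENSMUSG00000006269.7, chromosome 6 from 83742990 to 83758855, plus strand) encodes the kidney form of subunit B, which takes part in splitting ATP and whose loss in humans causes distal renal tubular acidosis with deafness. Its counts were 2893 (CLP) and 2767 (CLP + MLT), or 118 and 180 normalised CPM, with a log2 ratio of 0.61 (0.53 to 0.68). Atp6v1c2 (ENSMUSG00000020566.19, chromosome 12 from 17284721 to 17329359, minus strand) encodes a form of subunit C, which helps to hold V1 on V0. Its 734 and 788 counts gave 29.9 and 51.2 normalised CPM and the highest log2 ratio of the set, 0.77 (0.63 to 0.92). It was also the only one of the 10 genes whose whole interval lay beyond 1.5-fold, as it did for 3.57% of all genes. Atp6v1g3 (ENSMUSG00000026394.5, chromosome 1 from 138273738 to 138289462, plus strand) encodes a form of subunit G, part of the stalks that keep the pump from turning as a whole. It had 1477 and 1298 counts, 60.2 and 84.3 normalised CPM, and a log2 ratio of 0.49 (0.38 to 0.59).

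The kidney forms of the V0 subunits went opposite ways. Atp6v0d2 (ENSMUSG00000028238.6, chromosome 4 from 19876841 to 19922605, minus strand) encodes a form of subunit d, which couples the rotor to V1 and is also used by osteoclasts and macrophages. It had 1013 and 790 counts, 41.3 and 51.3 normalised CPM, and the smallest difference among the higher genes, 0.31 (0.18 to 0.45). Atp6v0a4 (ENSMUSG00000038600.12, chromosome 6 from 38048483 to 38124586, minus strand) encodes the a4 form of subunit a, which forms part of the path of the protons and whose loss also causes distal renal tubular acidosis. It had 6029 and 2986 counts, 246 and 194 normalised CPM, and a log2 ratio of −0.34 (−0.41 to −0.28). It was thus 1.27-fold lower in the CLP + MLT library while the other 4 pump genes were 1.24-fold to 1.71-fold higher. The a4 form is known from proximal tubules as well as intercalated cells. Of the 10 proximal tubule genes listed, 6 were higher in the same library and 4 lower, with a median log2 ratio of 0.35. Much lower were Slc5a12 (−3.31), Slc5a2 (−2.23) and, from another list, the bicarbonate carrier gene Slc4a4 (−1.26). Slc34a1 (0.63) and Lrp2 (0.41) were higher. The part of proximal tubules in the value of Atp6v0a4 was not tested. The exons of Atp6v0a4 share 259 bases with D630045J12Rik on the same strand and 62 with Tmem213 on the other strand, out of 4973, and those of Atp6v1c2 share 50 of 2174 bases with Pdia6, so reads there are uncertain.

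The kidney form of each subunit was then set against the other genes of the same subunit within each library, a share that no scaling between libraries can move. For subunit B, Atp6v1b1 made up 42.7% (41.5 to 43.8) of the 6782 counts of Atp6v1b1 and Atp6v1b2 in the CLP kidney library and 65.4% (64.0 to 66.9) of 4228 in the CLP + MLT library. The kidney form was thus the minor form in one library and the major form in the other. The share of Atp6v1c2 against Atp6v1c1 went from 30.4% (28.6 to 32.3) to 47.6% (45.2 to 50.1). The share of Atp6v1g3 against Atp6v1g1 went from 24.9% (23.8 to 26.0) to 35.7% (34.2 to 37.3). That of Atp6v0d2 against Atp6v0d1 went from 28.3% (26.8 to 29.8) to 39.2% (37.0 to 41.3). Only Atp6v0a4 went down among the 5, from 60.5% (59.6 to 61.5) of the counts of Atp6v0a4, Atp6v0a1, Atp6v0a2 and Tcirg1 to 53.7% (52.4 to 55.0). The counts are not corrected for length. Per length, Atp6v1b1 stood at 47.4% and 69.6% of subunit B, and Atp6v1c2 at 53.0% and 70.1% of subunit C. The intervals are exact Clopper-Pearson intervals and did not overlap between the kidney libraries for any of the 5 subunits.

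**Figure D2:**
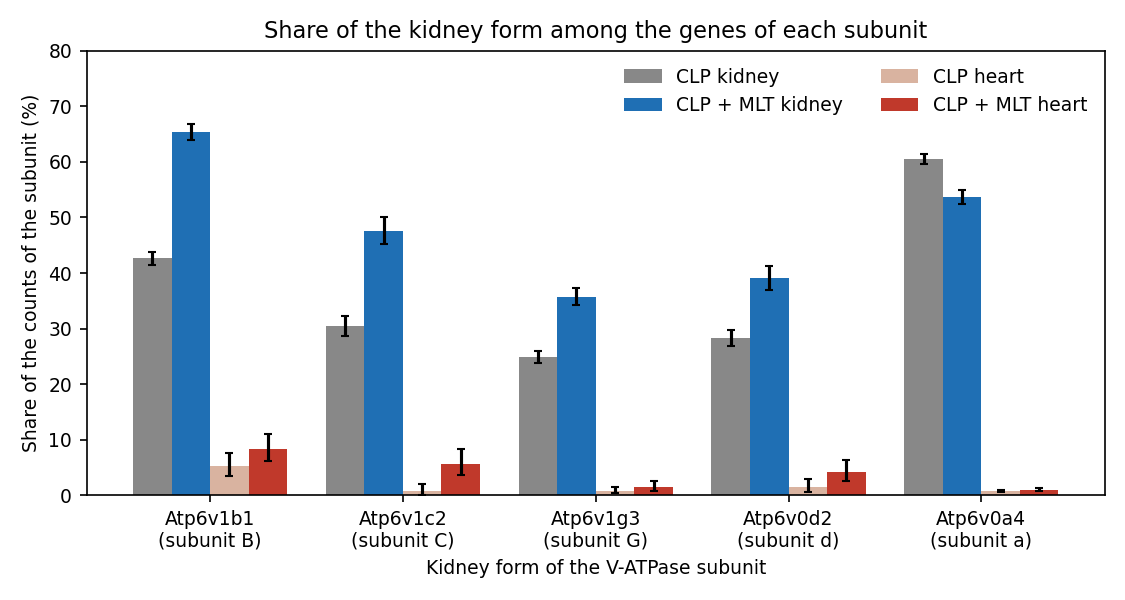
Share of the counts of each V-ATPase subunit that fell on its kidney form, in percent, in the 4 libraries, with 95% exact binomial intervals. The blue bar (CLP + MLT kidney) is above the grey one (CLP kidney) for subunits B, C, G and d and below it for subunit a, and the shares in heart stay between 0.716% and 8.30%.

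The shift in the shares came from both sides, since the widely used forms were lower in the CLP + MLT kidney library. Atp6v1b2 had a log2 ratio of −0.74 (−0.83 to −0.65), past 1.5-fold, from 3889 to 1461 counts. The log2 ratios of Atp6v1c1 (−0.28), Atp6v1g1 (−0.26) and Atp6v0d1 (−0.39) were smaller, with intervals below 0. The difference in log2 ratio between kidney form and widely used form was 1.35 (1.23 to 1.46) for subunit B, 1.06 (0.87 to 1.24) for C, 0.75 (0.62 to 0.88) for G and 0.70 (0.54 to 0.87) for d, with intervals from the Poisson errors of the 4 counts. For subunit a the order was the reverse. Atp6v0a4 was lower than Atp6v0a1 by 0.20, than Atp6v0a2 by 0.31 and than Tcirg1 by 0.83 on the log2 scale, as Tcirg1, a form rich in osteoclasts and lysosomes, was itself higher at 0.49 (0.35 to 0.63).

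Of all 20 other V-ATPase genes listed, Atp6v1e2 had 0 counts in both kidney libraries and 19 passed the filter, with 3 higher and 16 lower. Their median log2 ratio was −0.19, with 0 genes 1.5-fold higher and 2 lower (Atp6v1b2 and Atp6v0c, the proteolipid of the rotor, at −0.63), where 11.6% of all genes were lower by that much. The summed level of the other V-ATPase genes went from 2291 to 2006 normalised CPM, while that of the 10 acid-base genes went from 977 to 1251. Scaled by library size only, the kidney forms of B, C, G and d still stood above 0 and Atp6v0a4 below.

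**Figure D3:**
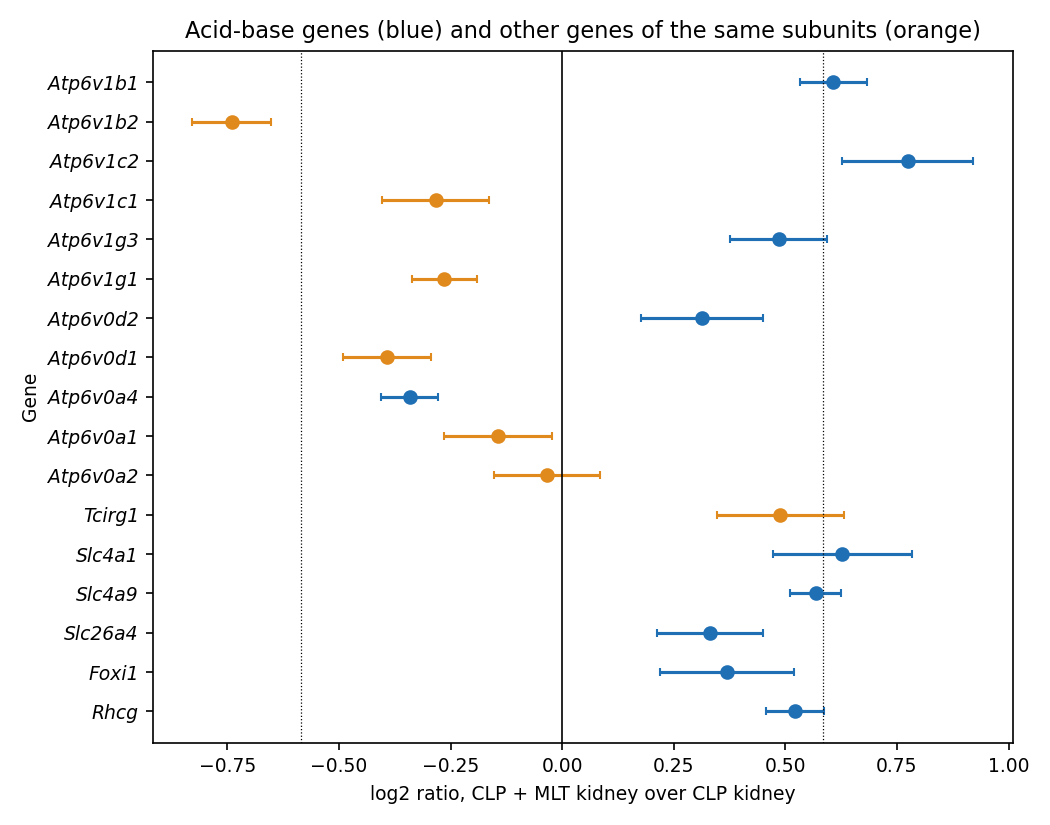
Kidney log2 ratios of the 10 acid-base genes (blue) and of the other genes of the same V-ATPase subunits (orange), with 95% counting intervals; dotted lines mark 1.5-fold. Atp6v1b2 lies at −0.74 and Atp6v1b1 at 0.61, the widest gap of the pairs shown, and Atp6v0a4 is the only blue point below 0.

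All 3 anion exchanger genes stood higher with melatonin in kidney. Slc4a1 (ENSMUSG00000006574.15, chromosome 11 from 102348824 to 102366203, minus strand) encodes AE1, the basolateral exchanger of type A cells and band 3 of red cells. It had 696 and 675 counts, 28.4 and 43.8 normalised CPM, and a log2 ratio of 0.63 (0.47 to 0.78). Slc4a9 (ENSMUSG00000024485.16, chromosome 18 from 36528147 to 36556273, plus strand) encodes AE4, a basolateral transporter of type B cells. Its 5102 and 4746 counts were the most of any of the 10 genes by their mean, and gave 208 and 308 normalised CPM and a log2 ratio of 0.57 (0.51 to 0.62). Slc26a4 (ENSMUSG00000020651.8, chromosome 12 from 31519827 to 31559969, minus strand) encodes pendrin, the apical exchanger of type B cells. It had 1307 and 1032 counts, 53.3 and 67.0 normalised CPM, and a smaller log2 ratio of 0.33 (0.21 to 0.45), whose interval lay below those of both other exchangers.

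Because Slc4a1 is also a red cell gene, red cell genes were read beside it. Their summed level was 69.9 and 83.9 normalised CPM in the CLP and CLP + MLT kidney libraries, over 11 genes, of which 6 passed the filter, 4 higher and 2 lower. Alas2, the first enzyme of heme synthesis in red cells, had 71 and 25 counts and a log2 ratio of −0.82 (−1.55 to −0.16). The 841 and 597 counts of Hbb-bs, a beta globin gene, gave a log2 ratio of 0.18 (0.02 to 0.33). The other globin genes were higher by more, with Hba-a1 at 0.38 (0.21 to 0.55), Hbb-bt at 0.51 (0.06 to 0.97) and Hba-a2 at 0.64 (0.11 to 1.19), the last past 1.5-fold and near the value of Slc4a1. Globin genes are near-identical copies, so the split of reads between them is uncertain. In heart the red cell list summed to 265 and 238 normalised CPM, and Slc4a1 had 7 and 21 counts. The part of red cells in the kidney value of Slc4a1 was not tested.

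Macrophage and osteoclast genes were read beside Atp6v0d2. Of 8 listed, 5 passed the filter, 3 higher and 2 lower, and their sum went from 108 to 178 normalised CPM. Csf1r, the receptor of a macrophage growth factor, was higher with 1.13 (1.02 to 1.24), and Acp5 with 0.37. Cd68 (−0.49) was lower, and Ctsk, a protease that defines osteoclasts, stood at −0.08 (−0.67 to 0.50). The fusion gene Dcstamp had 0 and 5 counts and Ocstamp 1 and 0. In heart these genes summed to 76.7 and 94.1 normalised CPM while Atp6v0d2 stood at 0.491 and 1.24. Their part in the kidney value of Atp6v0d2 was not tested.

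Rhcg (ENSMUSG00000030549.6, chromosome 7 from 79593363 to 79617657, minus strand) encodes an ammonia channel of the collecting duct through which acid leaves the body as ammonium. Its 3910 (CLP) and 3523 (CLP + MLT) counts in kidney gave 159 and 229 normalised CPM, and a log2 ratio of 0.52 (0.46 to 0.59). Rhcg is found in principal cells as well as intercalated cells.

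Type A and type B genes had overlapping values. The type A genes Slc4a1, Aqp6, Slc26a7 and Dmrt2 had log2 ratios of 0.39 to 0.63, with a median of 0.55. The type B genes Slc26a4, Slc4a9, Insrr and Hmx2 had 0.33 to 0.78, with a median of 0.60, so the ranges overlapped over most of their length.

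A list of 20 other genes known from intercalated cells gave a similar picture. All 20 passed the filter, with 17 higher and 3 lower and a median log2 ratio of 0.42. At least 1.5-fold higher were 6 and lower 0, against 11.0% and 11.6% of all genes. The 4 with the largest differences at a mean of at least 100 counts were Car15 (0.85), Kit (0.81), the insulin receptor-related gene Insrr (0.78), which senses alkali, and Hmx2 (0.64), a transcription factor gene of type B cells. The summed level of the 20 genes differed by less, at 1186 and 1271 normalised CPM. The gene with the highest mean count, the transcription factor gene Tfcp2l1, was lower at −0.29. At a mean of at least 500 counts, nearer in depth to the acid-base genes, the list had a median of 0.14. There, 1 of its remaining genes, Insrr, was 1.5-fold higher, as were 5.1% of all genes of that depth. Car15, Kit and Hmx2 were among the genes that averaged fewer counts and dropped out, so this is not 1 of 20. The acid-base genes kept a median of 0.50 with 3 genes past 1.5-fold.

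Genes of the neighbouring tubule cells were read on the same scale. Of 10 principal cell genes, 8 were higher and 2 lower, with a median of 0.44. At least 1.5-fold higher were 4 of them, against 11.0% of all genes. Those 4 were the vasopressin receptor gene Avpr2 (0.87), Fxyd4 (0.87), Aqp4 (0.82) and Elf5 (0.82, from 80 and 89 counts). The sodium channel gene Scnn1b (0.47) fell short of 1.5-fold, and the water channel gene Aqp2, the best known marker of these cells, stood at 0.08 (0.03 to 0.13). Of 10 thick limb and distal genes, 7 were higher, with a median of 0.22 and a spread from −0.37 for Calb1 to 1.89 for Pvalb, with Slc12a1 at 1.07 and Umod at −0.24. Of 10 proximal tubule genes, 6 were higher and 4 lower, with a median of 0.35 and the widest spread of these lists, from −3.31 for Slc5a12 to 0.73 for Slc22a8. The acid-base set, at −0.34 to 0.77, thus had a median near that of the principal cell list, and the differences between lists were not tested.

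Of 10 genes that handle ammonia and bicarbonate mainly in other tubule cells, 4 were higher and 6 lower, with a median of −0.19. Past 1.5-fold, Car4 (0.78) and Car14 (0.73), carbonic anhydrases of the proximal tubule surface, were higher, and the sodium bicarbonate carrier gene Slc4a4 (−1.26) and Glud1 (−0.72), an enzyme of ammonia production, were lower. Of all genes, 11.0% were higher and 11.6% lower by that much. The summed level of the 10 genes went from 4657 to 3385 normalised CPM.

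**Figure D4:**
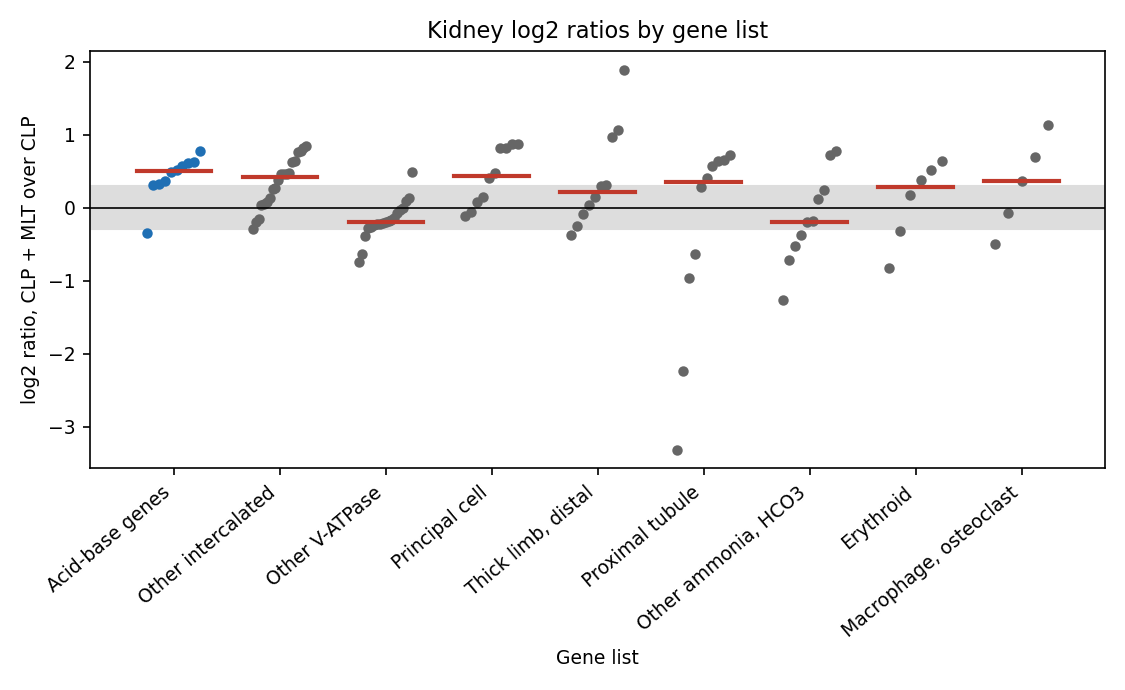
Kidney log2 ratios of the genes of each list that passed the filter of 10 counts; red lines are medians, the black line is the median of all 16932 genes and the grey band their interquartile range, from −0.29 to 0.29. The acid-base genes (blue) have a median of 0.50 with 1 gene below 0, and the other V-ATPase genes a median of −0.19.

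In heart, the 10 genes were present at trace levels, with 2 to 54 counts in the CLP library and 8 to 89 in the CLP + MLT library. Foxi1 had 2 and 8 counts, and Atp6v1g3 had 8 and 10, and these genes did not pass the filter of 10 counts, which the other 8 passed. Slc4a9 had 54 and 56 counts and Rhcg 41 and 89, the most of the set in each library. By CPM of the unscaled library size, the heart level was 0.339% to 1.46% of that in kidney in the CLP libraries, with a median of 1.16%, and 0.799% to 3.23% in the CLP + MLT libraries, with a median of 1.95%. In the heart, the kidney forms made up at most 8.30% of the counts of any V-ATPase subunit. Per length, Atp6v1c2 stood at 13.5% of subunit C and Atp6v1b1 at 9.88% of subunit B in the CLP + MLT heart library.

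All 10 genes had more counts in the CLP + MLT heart library, with log2 ratios from 0.06 (−0.50 to 0.63) for Slc4a9 to 2.82 (1.29 to 5.39) for Atp6v1c2, which went from 3 to 24 counts. Among all genes of the heart comparison, 50.2% were higher and 22.7% had an interval wholly above 0. The interval lay above 0 for 5 of the 10 genes: Atp6v1b1 (0.79, from 26 to 45 counts), Atp6v1c2, Atp6v0d2 (1.28, from 8 to 20), Slc4a1 (1.53, from 7 to 21) and Rhcg (1.12, 0.58 to 1.70). For Atp6v1g3 (0.31), Atp6v0a4 (0.51), Slc4a9, Slc26a4 (0.75) and Foxi1 (1.77) no difference could be detected at this depth. Of the 8 genes past the filter, 6 were at least 1.5-fold higher, where 10.9% of all genes were. Counts of this size let a gene pass the filter mainly through the library in which it is higher, so the number describes these libraries and supports nothing further. The whole interval lay beyond 1.5-fold for Atp6v1c2 alone, and for 2.89% of all genes. With edgeR's exact test at the assumed variations of 0.2 and 0.4, 1 and 0 of the 8 were called higher, against 1.84% and 0.265% of all genes.

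Genes of other kidney cells were also higher in the CLP + MLT heart library. Slc34a1 went from 587 to 1454 counts, Slc12a1 from 137 to 411, Aqp2 from 26 to 143 and Hsd11b2 from 26 to 66, while Umod had 459 and 468. Of the 8 kidney-defining genes, 7 passed the filter and 5 of these were at least 1.5-fold higher, where 10.9% of all genes were. The sum of all 8 went from 111 to 217 normalised CPM. As a percentage of the kidney level, the principal cell list had medians of 0.723% (CLP) and 2.60% (CLP + MLT) in heart, and the proximal tubule list 2.57% and 4.84%. The part of kidney RNA in the heart values was not tested.

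Between tissues, the log2 ratio in kidney minus that in heart ran from −2.04 for Atp6v1c2 to 0.51 for Slc4a9. Atp6v0a4 was the only one of the 10 whose ratios had opposite signs, −0.34 in kidney and 0.51 (−0.15 to 1.21) in heart, and the heart interval included 0.

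**Figure D5:**
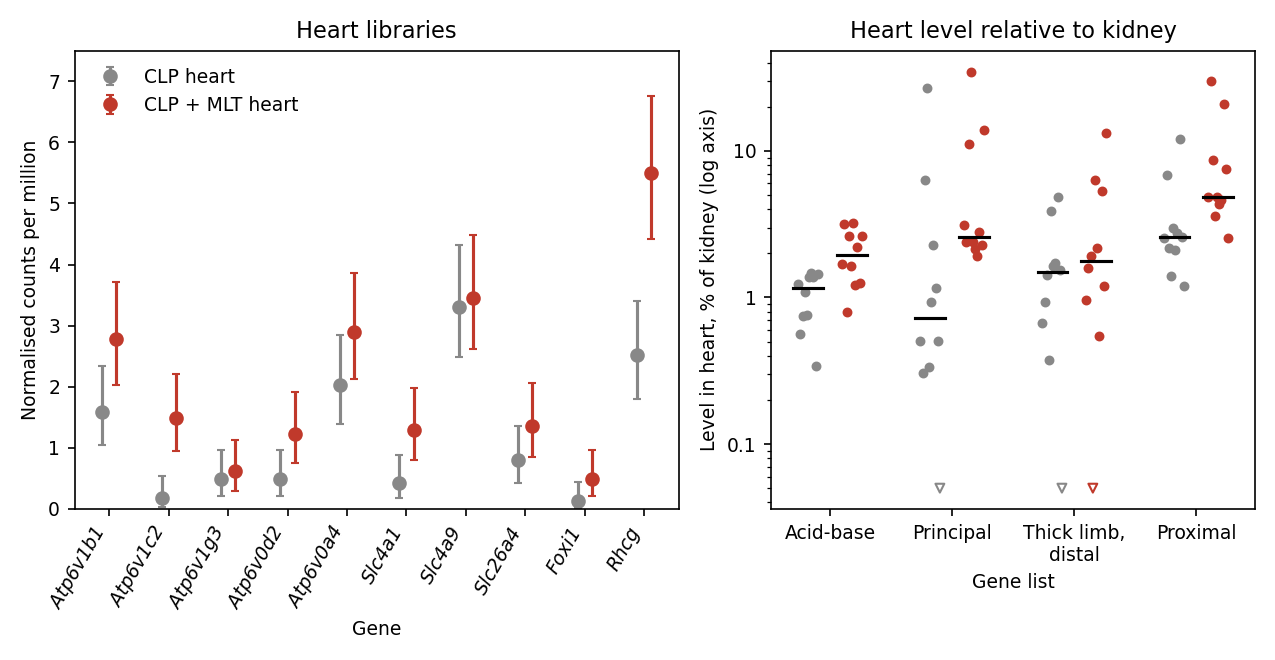
Left, normalised CPM of the 10 genes in the CLP heart library (grey) and the CLP + MLT heart library (red), with 95% exact Poisson intervals. Right, level in heart as a percentage of that in kidney (log axis) for genes of 4 lists, with medians as black lines and genes at 0 counts in heart as open triangles; the acid-base genes have medians of 1.16% (CLP) and 1.95% (CLP + MLT).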

How the data were processed

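Poly-A RNA of 4 libraries was sequenced. The authors trimmed reads with trim-galore, aligned them to mm10 with HISAT2 2.1.0 and deposited raw counts of reads per gene, and the submitters' processing notes name HTSeq, while its version, the annotation and the strand option are not given in the sources used. The library kit does not mark strand. The 5 totals in each file that name no gene were left out, and reads on no gene made up 52.1% to 52.6% of those on a gene or on none. Symbols, positions and exon lengths came from GENCODE M21 (GRCm38), which matched 55141 of 55401 identifiers. TMM factors were computed within each tissue on genes averaging 10 or more counts (edgeR 4.0.16, R 4.3.3), and were 1.07, 0.935, 0.981 and 1.02 for CLP kidney, CLP + MLT kidney, CLP heart and CLP + MLT heart. Ratios with a prior count of 0.5 and intervals were computed in Python 3.11.15 (numpy 2.4.6, scipy 1.17.1, pandas 2.3.3, matplotlib 3.10.9). The study states edgeR with a fold of at least 1.5 and a p-value. A dispersion cannot be estimated from single libraries, so the fold alone was used. PCR copies are not independent molecules, so intervals cover counting error only. The procedure was tested on simulated counts. The genes and lists were chosen with earlier results of these data known, and lists were written from general knowledge. Named are all 10 genes, the other genes of their V-ATPase subunits, up to 4 genes per list with the largest log2 ratio at a mean of at least 100 counts, fixed defining genes, and fixed red cell and osteoclast genes, of which some are not reported here. Havcr1, Tfcp2l1, Elf5, Hba-a2, Hbb-bt, Dcstamp, Ocstamp and Atp6v1e2 were named after their values were seen. Alternatives covered scaling (library size, DESeq2 1.42.0 size factors, upper quartile, and without mitochondrial and haemoglobin genes), filter, prior count, fold and call rule.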

Additional observations from a re-analysis of the deposited data

Results flagged for a closer look

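Several genes named beside the 10 acid-base genes lay on opposite sides of 0 in kidney and heart, with both counting intervals off 0. The differences between the tissues were not tested, since each group has 1 library. Higher in the CLP + MLT kidney library and lower in the CLP + MLT heart library were Kit (0.81 and −0.94 on the log2 scale), Car4 (0.78 and −0.48), Car14 (0.73 and −0.28), Acp5 (0.37 and −0.86) and Hbb-bs (0.18 and −0.35). The opposite held for Slc4a4 (−1.26 in kidney and 0.65 in heart), Glud1 (−0.72 and 0.21) and the intercalated cell gene Tfcp2l1 (−0.29 and 0.86). None of the 10 acid-base genes met this condition. Only 5 of them had a heart interval off 0, at 2 to 89 heart counts, so low depth limited which genes could meet it. The share of all genes that met it was not computed.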

How the results depend on the processing

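Of the 10 genes in kidney, 9 stayed higher and Atp6v0a4 lower under each alternative scaling and with a prior count of 5. The number at least 1.5-fold higher, 3 in the report, was 0 with scaling by library size only, 0 with a fold of at least 2, 1 where the whole interval had to lie beyond 1.5-fold, and 0 with edgeR's exact test at an assumed coefficient of variation of 0.2 or of 0.4 between mice; the assumed variation is not an estimate. The median of 0.50 was 0.31 with scaling by library size only, which shifted all genes by −0.19. Of all genes in kidney, 11.0% were 1.5-fold higher and 11.6% lower. The share higher was 5.1% at a mean of at least 500 counts and 3.57% with the whole interval beyond 1.5-fold. At 2-fold, 4.13% were higher and 4.9% lower. Past the filter, the other lists held 19 other V-ATPase, 20 other intercalated cell, 6 red cell, and 5 macrophage and osteoclast genes. They also held 10 genes each for principal cells, thick limb and distal tubule, proximal tubule, and ammonia and bicarbonate. Of these lists together, 21 genes were 1.5-fold higher and 9 lower. The higher ones numbered 11 with library size only, 11 with a mean of at least 500 counts (chosen after seeing the data), 3 at 2-fold, 13 with the whole interval beyond 1.5-fold, and 3 and 0 at the assumed variations of 0.2 and 0.4; the lower ones numbered 3 at 2-fold, and 3 and 1 at the assumed variations. In heart, 6 genes became 1 with a mean of at least 50 counts, 1 with the whole interval, and 1 and 0 at the assumed variations, by the construction of stricter rules on few counts. No paired analysis was possible because each group has 1 library and the CLP libraries carry no number in their labels. The number 4 in the titles of both CLP + MLT libraries is not explained, and whether it marks a shared mouse is not known. The low counts of these genes in heart leave wide intervals there.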
